A study of Homo sapiens with 6 samples.

Results

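The 10 genes described here encode cholinergic receptor subunits and acetylcholine handling proteins, and were measured in SH-SY5Y cells. They do not cover every such gene in these cells: CHRM2, for example, is outside the 10 and is described below. They are the nicotinic subunit genes CHRNA3, CHRNA5, CHRNA7, CHRNB2 and CHRNB4, the muscarinic receptor gene CHRM3, and CHAT, SLC18A3, SLC5A7 and ACHE. They were chosen by name, with earlier results of these data known. Each was found by its Ensembl identifier among the 58096 gene rows of the count table. SH-SY5Y is a human neuroblastoma line with noradrenergic features, labelled as neuronal progenitor. All cells received 2 ul of adenovirus for 48 h. The virus carried PGC-1a in the 3 libraries of the group PGC1A and GFP in the 3 libraries of the group GFP. PGC-1a is a transcriptional coactivator known for mitochondrial biogenesis, and the series asks how its expression changes the transcriptome of these cells. Uninfected cells were not analysed here and the labels give volumes without titres, so effects of PGC-1a and of unequal viral dose cannot be told apart. Nothing in the labels says that replicate libraries came from separate cultures. The p-values thus rest on the spread between these libraries alone, which may be technical.

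In a cholinergic neuron, choline acetyltransferase (CHAT) makes acetylcholine, the vesicular transporter SLC18A3 loads it into synaptic vesicles, acetylcholinesterase (ACHE) hydrolyses it after release, and SLC5A7 takes the choline back up. Nicotinic receptors are ion channels built of subunits in several combinations. Receptors of CHRNA3 and CHRNB4 products, with or without the CHRNA5 product, carry fast transmission in autonomic ganglia and the adrenal medulla, whereas CHRNA4 and CHRNB2 products form the main receptor of the brain and CHRNA7 products can form a channel alone. Muscarinic receptors are coupled to G proteins: CHRM1, CHRM3 and CHRM5 to the Gq class, CHRM2 and CHRM4 to the Gi class. Sympathetic neuroblasts and the neuroblastomas derived from them are known to carry ganglionic nicotinic and muscarinic receptors.

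Between 24988743 and 31762496 reads per library were assigned to genes. Levels are given in CPM, the read count of a gene scaled by its library's total and TMM factor. Differences were tested with edgeR's quasi-likelihood test, with Benjamini-Hochberg adjustment over all 19343 genes tested and a threshold of 0.05. PPARGC1A, which encodes PGC-1a, had 109350, 104546 and 103737 counts in the PGC1A libraries and 98, 131 and 135 counts in the GFP libraries. Most of the transcriptome differed: 83.0% of genes passed, 40.9% higher and 42.1% lower in PGC1A. A call alone therefore says little about a gene, and sizes are given throughout. Scaling by total counts turned the split of calls to 5778 higher and 10743 lower, against 7909 higher and 8148 lower with TMM, and moved the median gene by −0.33 (log2). Noradrenergic markers were present, with DBH at 12.1 to 15.1 CPM in PGC1A and 125.5 to 128.9 CPM in GFP, although TH, which encodes tyrosine hydroxylase, had 7, 5 and 9 counts in the PGC1A libraries and 0 in every GFP library.

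Of the 10 genes, 9 had enough reads to be tested, and CHAT did not. Of these 9, 7 were lower in PGC1A, 1 was higher (CHRNA7) and 1 did not pass (CHRM3). In the same 8 the groups did not overlap, as was so for 83.6% of all genes tested, 40.9% higher and 42.7% lower. The share called, in either direction, was thus near the background of 83.0%. The split by direction was uneven, where 42.1% of all genes were lower and 40.9% higher. Since the members were chosen with earlier results of these data known, this split describes them and is no test of the set. Several falls were also large. CHRNA3, CHRNB4, SLC18A3 and ACHE fell by at least 2-fold, a size reached downward by 16.8% of genes, with CHRNA5 just short of it. CHRNA3 fell by more than 10-fold, as did 0.822% of genes. When tested against a 1.5-fold change with glmTreat, 6 of the 9 passed, all of them lower, against 47.8% of genes, 24.6% higher and 23.1% lower. The median log2 fold change of the 9 was −0.997, against −0.03 over all genes tested.

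**Figure D1:**
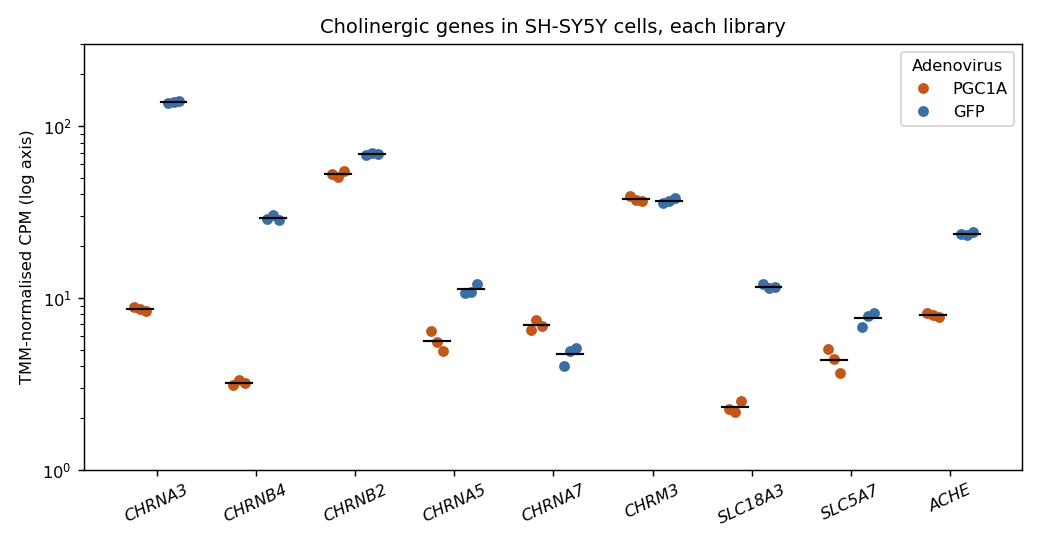
Level of 9 cholinergic genes in each library, in TMM-normalised CPM on a log axis; each point is a library, orange for PGC1A and blue for GFP, and the bar is the mean of 3. CHRNA3 lies near 8.60 CPM in PGC1A and 138 CPM in GFP, whereas the groups overlap for CHRM3; CHAT, with 0 or 1 count per library, is not drawn.

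CHRNA3, the alpha subunit of the ganglionic receptor, was the most abundant nicotinic subunit in control cells and showed the largest change of the 10 genes. CHRNA3 (ENSG00000080644.15, chromosome 15, 78593052 to 78621295, minus strand, GRCh38) was measured at 8.79, 8.62 and 8.39 CPM in the PGC1A libraries, against 137, 138 and 139 CPM in the GFP libraries. Every PGC1A library was far below every GFP library. The mean was 8.60 ± 0.200 CPM in PGC1A and 138 ± 1.05 CPM in GFP (SD, n = 3 each), 16.0-fold lower in PGC1A (log2 fold change −4.002, SE 0.04, edgeR adjusted p = 5.34e-52). In bulk RNA, fewer cells carrying a transcript and less of it per cell cannot be told apart.

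CHRNB4, the beta subunit that partners CHRNA3 in ganglia, fell with it. CHRNB4 (ENSG00000117971.11, chromosome 15, 78624119 to 78727754, minus strand) was measured at 3.10, 3.30 and 3.21 CPM in the PGC1A libraries, against 28.6, 30.5 and 28.3 CPM in the GFP libraries. The groups were widely separated, at a fold of 9.08 (log2 fold change −3.18, SE 0.08, edgeR adjusted p = 2.86e-37). The fall of CHRNA3 was the larger of the pair. Within a library, the log2 ratio of CHRNA3 to CHRNB4 counts was 1.42 ± 0.068 in PGC1A and 2.24 ± 0.061 in GFP (SD, n = 3 each), a difference of −0.82. The exact two-sided permutation test gave p = 0.1, the smallest that 3 against 3 libraries allow. Such a ratio does not depend on how libraries are scaled to each other.

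CHRNA5, an accessory subunit that joins these receptors but does not form the agonist site, fell less. CHRNA5 (ENSG00000169684.13, chromosome 15, 78565520 to 78595269, plus strand) was measured at 6.39, 5.55 and 4.90 CPM in the PGC1A libraries, against 10.7, 10.9 and 12.0 CPM in the GFP libraries. The groups did not overlap, with the PGC1A libraries spread more widely in proportion than for CHRNA3. The fold was 2.00 (log2 fold change −0.997, SE 0.09, edgeR adjusted p = 1.06e-14). The log2 ratio of CHRNA5 to CHRNA3 counts was −0.62 ± 0.158 in PGC1A and −3.62 ± 0.084 in GFP (SD, n = 3 each). These differ by 3.001 (exact permutation p = 0.1). The ends of these neighbours overlap on opposite strands. Of the exon bases of CHRNA5, 1030 (28.4%) also lie in AC027228.2 or CHRNA3 on the opposite strand. CHRNA3 shares only 198 exon bases (4.16% of its own) with CHRNA5. The libraries kept strand, per the labels, but whether the counting used it is not given in the sources used here.

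CHRNA5, CHRNA3 and CHRNB4 lie side by side in 162235 bases of chromosome 15. CHRNA5 and CHRNA3 share 2218 bases at their 3′ ends, and 2823 bases separate CHRNA3 from CHRNB4. The surrounding protein-coding genes did not move as a block. On the CHRNA5 side, the proteasome subunit gene PSMA4 was at 185 ± 2.90 CPM in PGC1A and 191 ± 4.08 CPM in GFP (log2 fold change −0.05, edgeR adjusted p = 0.0808). That value rests on the scaling, being −0.38 with total counts (adjusted p = 4.67e-19), −0.18 with upper-quartile factors (adjusted p = 2.36e-08) and −0.013 with RLE factors (adjusted p = 0.652). It also rests on single libraries, being −0.08 without GFP replicate 3 (adjusted p = 0.0181) and −0.024 without PGC1A replicate 3 (adjusted p = 0.438). Beyond PSMA4, the hydroxylysine kinase gene HYKK rose to 12.1 ± 0.268 CPM in PGC1A, against 0.713 ± 0.127 CPM in GFP (4.06 on the log2 scale, SE 0.13, adjusted p = 1.23e-32), and the iron-responsive RNA-binding protein gene IREB2 rose by 0.89 (adjusted p = 1.36e-34), or by 0.56 with total counts. On the CHRNB4 side, the metalloprotease gene ADAMTS7 fell by 0.93 (adjusted p = 2.84e-24) and the chromatin protein gene MORF4L1 fell by 0.46 (adjusted p = 2.21e-22), or by 0.79 with total counts. The cathepsin H gene CTSH, the third on that side, rose by 3.11 (adjusted p = 1.14e-38, all with edgeR).

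**Figure D2:**
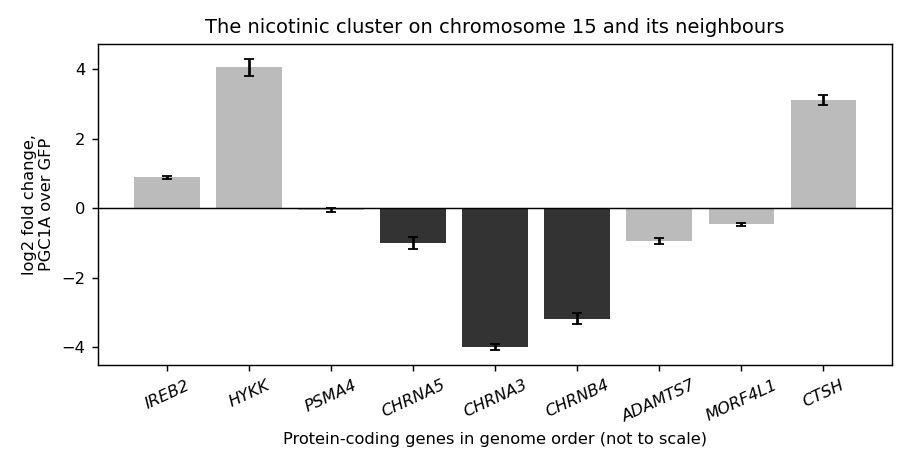
Log2 fold change, PGC1A over GFP, of CHRNA5, CHRNA3 and CHRNB4 (dark) and of the nearest 3 protein-coding genes on each side (grey), in genome order and not to scale; error bars are 95% intervals. CHRNA3 and CHRNB4 stand at −4.002 and −3.18, between PSMA4 at −0.05 and ADAMTS7 at −0.93, and HYKK at 4.06 lies on the other side of PSMA4.

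The promoters of CHRNA3 and CHRNB4 are shown because these genes fell together, and that of CHRNA7 because it rose. Each runs from 250 bases before to 50 bases after the first listed start site of the gene, 5′ to 3′ on the gene's strand, from RefSeq (GRCh38.p14). Capitals mark GGGCGG or its reverse complement CCGCCC, the GC box bound by SP1 and its relatives, with overlapping matches joined. The RefSeq starts of CHRNB4 and CHRNA7 lie inside the longer gene bounds given by GENCODE for these genes.
CHRNA3, chr15:78620947-78621246, minus strand: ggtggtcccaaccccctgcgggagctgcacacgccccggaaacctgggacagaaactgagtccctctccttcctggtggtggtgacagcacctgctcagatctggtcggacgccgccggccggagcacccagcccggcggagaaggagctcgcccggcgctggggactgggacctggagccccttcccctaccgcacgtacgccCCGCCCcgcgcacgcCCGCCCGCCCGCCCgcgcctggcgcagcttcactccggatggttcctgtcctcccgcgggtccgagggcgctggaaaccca
CHRNB4, chr15:78641161-78641460, minus strand: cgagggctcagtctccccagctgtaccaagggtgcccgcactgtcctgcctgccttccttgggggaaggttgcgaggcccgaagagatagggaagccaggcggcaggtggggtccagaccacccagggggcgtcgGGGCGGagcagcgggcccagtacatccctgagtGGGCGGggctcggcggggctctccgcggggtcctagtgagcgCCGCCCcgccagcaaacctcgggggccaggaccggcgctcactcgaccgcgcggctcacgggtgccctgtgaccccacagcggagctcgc
CHRNA7, chr15:32030233-32030532, plus strand: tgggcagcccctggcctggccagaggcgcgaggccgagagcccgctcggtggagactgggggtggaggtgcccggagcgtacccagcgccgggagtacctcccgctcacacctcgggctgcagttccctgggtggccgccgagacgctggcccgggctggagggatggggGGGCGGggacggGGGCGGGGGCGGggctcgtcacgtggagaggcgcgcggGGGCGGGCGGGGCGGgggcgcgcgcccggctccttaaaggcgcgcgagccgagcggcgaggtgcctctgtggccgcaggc
These hold 4, 3 and 6 GC boxes and have a GC content of 72.7%, 72.7% and 79.0%, against a median of 58.7% over all 35116 promoters in the table. A GC box is present in 45.0% of those promoters. Among the other members, SLC18A3 held 3 GC boxes and SLC5A7 held 1. By start site, CHAT held 2, 3 and 1 and ACHE held 5, 0 and 1, whereas CHRNB2 and CHRM3 held 0. The GC content of these other windows ran from 54.3% in CHAT to 74.7% in ACHE. An AAGGTCA on either strand, the core of the sites bound by estrogen-related receptors, the partners of PGC-1a, occurs in 3.92% of all promoters and in none of the windows listed for 9 of the 10 genes. The letters GCGCA, any base and GCGC, as in an NRF1 site, on either strand occur in 5.78% and likewise in none of them. CAGCTG, an E-box that reads the same on both strands, occurs in 17.9% of all promoters and once here, in CHRNB4. CHRNA5 had no entry.

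CHRNB2, the beta subunit of the brain receptor, fell slightly. CHRNB2 (ENSG00000160716.5, chromosome 1, 154567781 to 154580026, plus strand) was measured at 52.4, 50.2 and 54.5 CPM in the PGC1A libraries, against 68.0, 69.7 and 68.7 CPM in the GFP libraries. The groups did not overlap, but the change was only 1.31-fold (log2 fold change −0.39, SE 0.04, edgeR adjusted p = 2.73e-14) and did not pass against a 1.5-fold change (glmTreat adjusted p = 1). With total counts the log2 fold change was −0.72, which is over 1.5 times as large. CHRNB2 exceeded CHRNB4 by a log2 count ratio of 4.02 ± 0.090 in PGC1A and 1.24 ± 0.043 in GFP (SD, n = 3 each). These differ by 2.78 (exact permutation p = 0.1).

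CHRNA7, the subunit of the channel known for its calcium permeability, was the member that rose. CHRNA7 (ENSG00000175344.17, chromosome 15, 31923438 to 32173018, plus strand) was measured at 6.50, 7.41 and 6.90 CPM in the PGC1A libraries, against 4.03, 4.92 and 5.14 CPM in the GFP libraries. The groups were close but did not overlap, at a fold of 1.46 (log2 fold change 0.55, SE 0.10, edgeR adjusted p = 1.79e-06; glmTreat adjusted p = 0.614). With total counts the log2 fold change was 0.22 (adjusted p = 0.0361). CHRFAM7A, a fusion gene on the same chromosome that carries a copy of part of CHRNA7, was at 2.72 ± 0.0741 CPM in PGC1A and 1.41 ± 0.134 CPM in GFP (log2 fold change 0.95, SE 0.16, edgeR adjusted p = 3.51e-07). Reads from the copied part may align to both genes, so the counts of this pair are uncertain.

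The other neuronal nicotinic subunit genes moved in both directions, and CHRNA4 and CHRNA2 went against the ganglionic subunits. Of 6 such genes, 4 were tested, 2 higher and 2 lower, where 40.9% of all genes were higher and 42.1% lower. CHRNA4, the alpha subunit of the main brain receptor, had 6.77, 6.76 and 7.64 CPM in the PGC1A libraries, against 0.143, 0.362 and 0.281 CPM in the GFP libraries (log2 fold change 4.69, SE 0.18, edgeR adjusted p = 3.35e-28). CHRNA2, another alpha subunit of brain receptors, had 7.03, 6.91 and 6.62 CPM in the PGC1A libraries, against 0.321, 0.181 and 0.365 CPM in the GFP libraries (log2 fold change 4.55, SE 0.18, adjusted p = 3.65e-28). Both were close to silent in GFP, with 4 to 13 counts per library. CHRNA10, of the hair cell type of receptor, fell by 0.54 in log2 (SE 0.19, adjusted p = 0.00869), with 1.25 ± 0.103 CPM in PGC1A and 1.83 ± 0.373 CPM in GFP (SD, n = 3 each). Its call was lost without GFP replicate 2 (log2 fold change −0.41, adjusted p = 0.0739) and with DESeq2 (adjusted p = 0.0633), and the fold change was −0.86 with total counts. CHRNA9, its partner, fell by 2.18 (SE 0.40, adjusted p = 2.57e-06), at under 1 CPM in every library. Among the muscle subunit genes, CHRNB1 was at 22.4 ± 0.908 CPM in PGC1A and 19.2 ± 0.845 CPM in GFP (log2 fold change 0.23, adjusted p = 2.20e-04), a call lost with upper-quartile factors (0.10, adjusted p = 0.0918) and with total counts, where the sign turned (−0.10, adjusted p = 0.0750). CHRNA1, which the muscle receptor requires, had no read in any library.

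Per length, the makeup of nicotinic subunit transcripts differed between the groups. Levels were divided by the length of the principal GENCODE transcript of each gene and summed over the 11 neuronal subunit genes. The sum was 19.5, 18.9 and 19.4 CPM per kilobase in the PGC1A libraries, against 70.4, 71.8 and 71.4 CPM per kilobase in the GFP libraries. CHRNA3 made up 14.1%, 14.3% and 13.5% of it in PGC1A, against 60.7%, 59.9% and 60.8% in GFP. CHRNB4 made up 6.35% ± 0.298 in PGC1A and 15.6% ± 0.538 in GFP (SD, n = 3 each). CHRNB2 made up 46.4% ± 1.31 in PGC1A and 16.5% ± 0.0784 in GFP, although its own level per kilobase was 8.93 ± 0.363 in PGC1A and 11.7 ± 0.143 in GFP. Its larger share in PGC1A thus came with a lower level. CHRNA5 made up 8.05% ± 1.05 in PGC1A and 4.34% ± 0.276 in GFP. CHRNA2 held 8.76% ± 0.323 in PGC1A and 0.0999% ± 0.0335 in GFP, CHRNA4 held 6.57% ± 0.433 in PGC1A and 0.0658% ± 0.0274 in GFP, and CHRNA7 held 5.84% ± 0.474 in PGC1A and 1.07% ± 0.125 in GFP. Some shares in PGC1A rest on the length used: with the union of all exons CHRNA7 held 2.10% ± 0.183, CHRNA4 held 4.04% ± 0.271 and CHRNB4 held 4.08% ± 0.217. CHRNA7 then held 0.440% ± 0.0514 in GFP. All these shares are of transcripts and do not give the composition of receptors.

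**Figure D3:**
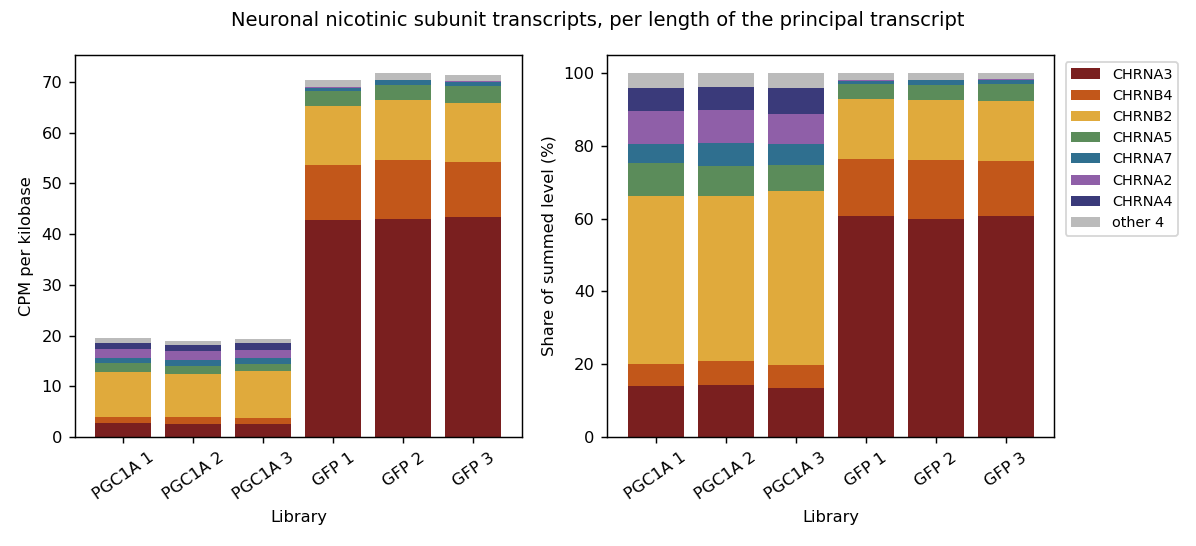
Stacked levels of 11 neuronal nicotinic subunit transcripts in each library, per kilobase of principal transcript (left) and as shares of their sum (right), with the 3 PGC1A libraries left of the 3 GFP libraries. The sum is near 19.25 CPM per kilobase in PGC1A and 71.19 in GFP, with CHRNB2 the largest share in PGC1A and CHRNA3 the largest in GFP.

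Among the 10 genes the order of levels per kilobase was CHRNB2, CHRM3, ACHE, CHRNA3, CHRNA5, CHRNB4, CHRNA7, SLC18A3, SLC5A7 and CHAT in PGC1A. In GFP it was CHRNA3, CHRNB2, CHRNB4, ACHE, SLC18A3, CHRM3, CHRNA5, SLC5A7, CHRNA7 and CHAT. Neighbours in these orders were not always distinct. In PGC1A, SLC18A3 at 0.953 ± 0.0743 and SLC5A7 at 0.847 ± 0.136 CPM per kilobase were within their spread, as were CHRNB4 at 1.22 ± 0.0386 and CHRNA7 at 1.12 ± 0.0732. In GFP, CHRNB4 at 11.1 ± 0.443 overlapped both CHRNB2 at 11.7 ± 0.143 and ACHE at 10.9 ± 0.255 CPM per kilobase (SD, n = 3 each). These orders use the principal transcript, and some ranks rest on that length. With the union of all exons, CHRNB4 in PGC1A was at 0.6445 ± 0.0203, below SLC18A3, whose length was unchanged. CHRNA7 in PGC1A was then at 0.331 ± 0.0216, no longer within the spread of CHRNB4. In GFP, CHRNB4 was then at 5.86 ± 0.234, no longer overlapping CHRNB2 at 11.67 ± 0.142. CHRNA5 at 3.088 ± 0.207 in GFP then overlapped CHRM3 at 3.025 ± 0.0939.

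CHRM3, a Gq-coupled muscarinic receptor gene, showed no difference past the threshold. CHRM3 (ENSG00000133019.11, chromosome 1, 239386565 to 239915452, plus strand) was measured at 38.9, 37.0 and 36.5 CPM in the PGC1A libraries, against 35.7, 36.7 and 38.0 CPM in the GFP libraries. The groups overlapped, and the log2 fold change was 0.02 with a 95% interval of −0.06 to 0.11 (edgeR adjusted p = 0.609). This rests on the scaling, since the log2 fold change was −0.31 with total counts (adjusted p = 5.35e-09) and −0.10 with upper-quartile factors (adjusted p = 0.0199). Without GFP replicate 1 it was −0.0052 (adjusted p = 0.922).

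The other muscarinic receptor genes did differ, and those coupled to Gi moved in opposite directions. CHRM2, known from heart and autonomic terminals, had 16.1, 18.4 and 16.1 CPM in the PGC1A libraries, against 75.0, 77.2 and 79.1 CPM in the GFP libraries (log2 fold change −2.19, SE 0.05, edgeR adjusted p = 2.90e-40). CHRM4, known from the striatum, had 3.70, 3.23 and 3.02 CPM in the PGC1A libraries, against 0.249, 0.392 and 0.168 CPM in the GFP libraries (log2 fold change 3.61, SE 0.23, adjusted p = 7.21e-20). CHRM4 was thus near silent in GFP, like CHRNA2 and CHRNA4. CHRM5 fell by 1.27 (SE 0.24, adjusted p = 4.00e-06), at 0.609 ± 0.120 CPM in PGC1A and 1.47 ± 0.274 CPM in GFP (SD, n = 3 each). CHRM1 had at most 12 counts in a library and was not tested. Per kilobase of principal transcript, CHRM2 made up 60.1% ± 2.62 of muscarinic transcripts in PGC1A and 90.6% ± 0.104 in GFP, with CHRM3 at 25.8% ± 1.35 in PGC1A and 8.35% ± 0.0458 in GFP. CHRM4 made up 13.3% ± 1.37 in PGC1A and 0.357% ± 0.151 in GFP. The order within PGC1A rests on the length used. With the union of all exons CHRM3 held 41.5% ± 1.04, CHRM4 29.5% ± 1.94 and CHRM2 27.3% ± 2.23 there, although CHRM2 stayed first in GFP at 72.5% ± 0.290.

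**Figure D4:**
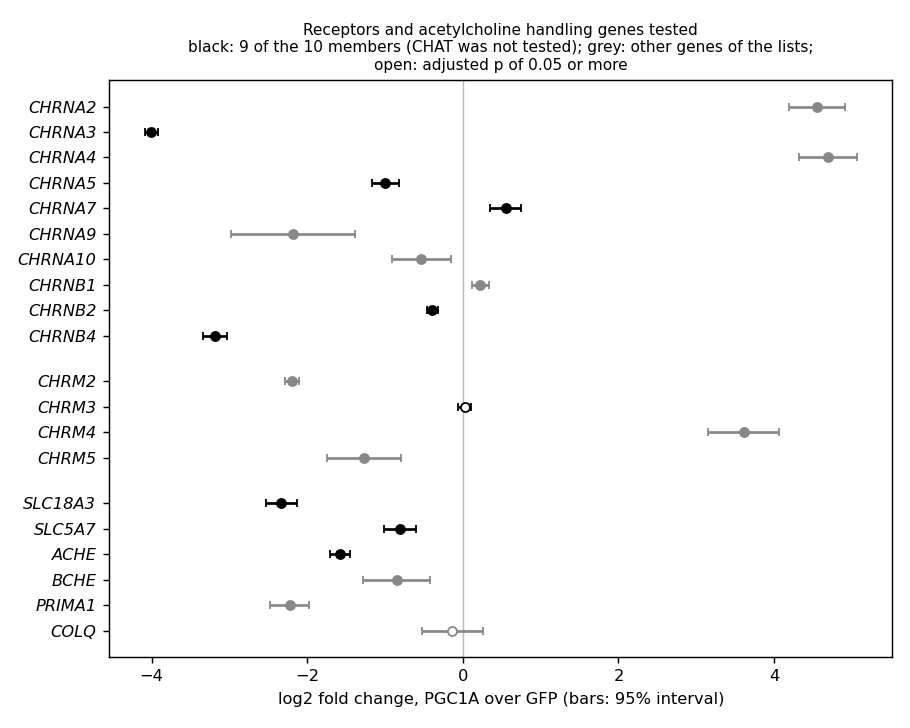
Log2 fold change, PGC1A over GFP, with 95% intervals for nicotinic subunit, muscarinic receptor and acetylcholine handling genes that were tested; black marks 9 of the 10 genes, grey the other genes of these families, and open points an adjusted p of 0.05 or more. CHRNA4, CHRNA2 and CHRM4 lie between 3.61 and 4.69, opposite CHRNA3 at −4.002 and CHRNB4 at −3.18, with CHRM3 at 0.02.

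Transcripts of the synthesis enzyme were close to absent in both groups. CHAT (ENSG00000070748.17, chromosome 10, 49609095 to 49665104, plus strand) had 1, 0 and 1 counts in the PGC1A libraries and 1, 0 and 1 in the GFP libraries. No difference was detectable at this depth, at which 3 counts over a group correspond to 0.0381 CPM in PGC1A and 0.0309 CPM in GFP. SLC18A3 (ENSG00000187714.6, chromosome 10, 49610301 to 49612720, plus strand), the vesicular acetylcholine transporter gene, begins 1206 bases after the start of CHAT, inside its first intron, and shares no exon base with it. Despite this, SLC18A3 was detected in every library, at 2.24, 2.17 and 2.51 CPM in PGC1A, against 12.0, 11.3 and 11.5 CPM in GFP. It fell 5.03-fold (log2 fold change −2.33, SE 0.10, edgeR adjusted p = 1.41e-26), with the groups well apart.

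The remaining handling genes fell by less. SLC5A7 (ENSG00000115665.8, chromosome 2, 107986523 to 108013994, plus strand), the high-affinity choline transporter gene, was measured at 5.05, 4.41 and 3.64 CPM in the PGC1A libraries, against 6.81, 7.81 and 8.14 CPM in the GFP libraries. The groups did not overlap, though they lay closer than for the others, at a fold of 1.74 (log2 fold change −0.80, SE 0.10, edgeR adjusted p = 9.62e-10). ACHE (ENSG00000087085.13, chromosome 7, 100889994 to 100896974, minus strand) was measured at 8.15, 7.90 and 7.72 CPM in the PGC1A libraries, against 23.6, 23.2 and 24.3 CPM in the GFP libraries. It fell 2.99-fold (log2 fold change −1.58, SE 0.06, adjusted p = 1.80e-27), with a narrow spread in each group. The fall of ACHE was smaller than that of CHRNA3: the log2 ratio of ACHE to CHRNA3 counts was −0.12 ± 0.009 in PGC1A and −2.54 ± 0.026 in GFP (SD, n = 3 each, exact permutation p = 0.1). PRIMA1, whose product anchors acetylcholinesterase in neuronal membranes, fell to 1.501 ± 0.0160 CPM in PGC1A, against 7.06 ± 0.360 CPM in GFP (−2.23 in log2, SE 0.12, adjusted p = 5.05e-22). BCHE, the related esterase gene, fell by 0.85 (SE 0.21, adjusted p = 3.30e-04). COLQ, the collagen tail of the muscle form, had a log2 fold change of −0.14 (adjusted p = 0.509).

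Factors that assemble or modulate nicotinic receptors were divided. Of 13 genes, 11 were tested, with 5 higher and 6 lower, near the 40.9% higher and 42.1% lower of all genes. Their median log2 fold change was −0.10. LY6H, a toxin-like protein that binds neuronal receptors, had 272 counts over the PGC1A libraries and 1 over the GFP libraries, a ratio of 335 with a 95% counting interval of 59.7 to 13290. LYNX1, a membrane-bound modulator of the same family, rose to 63.8 ± 1.71 CPM in PGC1A, against 24.4 ± 0.179 CPM in GFP (log2 fold change 1.39, SE 0.04, edgeR adjusted p = 8.02e-34). LYPD1, also of that family, fell by 1.14 (SE 0.13, adjusted p = 9.72e-11).

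Genes supplying choline and acetyl-CoA were likewise split, with 7 higher and 11 lower of 19 tested (median −0.37), against 40.9% higher and 42.1% lower of all genes. CHPT1, which makes phosphatidylcholine, rose to 123 ± 4.66 CPM in PGC1A, against 9.27 ± 0.673 CPM in GFP (log2 fold change 3.73, SE 0.05, edgeR adjusted p = 6.82e-50). PLD1, a phospholipase that frees choline from phosphatidylcholine, rose by 2.58 (SE 0.05, adjusted p = 7.29e-41). PCYT1B, an isoform of the enzyme that commits choline to that lipid, fell by 1.62 (SE 0.07, adjusted p = 1.26e-25).

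The Gq pathway that CHRM3 uses was represented by 22 genes, of which 4 were higher and 16 lower; their median was −0.86 in log2. Over all genes tested, 42.1% were lower, and the median was −0.03. RGS2, which limits Gq signalling, fell to 15.9 ± 0.865 CPM in PGC1A, against 119 ± 0.437 CPM in GFP (log2 fold change −2.90, SE 0.04, edgeR adjusted p = 1.81e-47). PLCB4, a phospholipase C of this pathway, fell by 2.55 (SE 0.05, adjusted p = 6.20e-40).

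Of 19 transcription factor genes known for acting on these receptors or on CHAT, 16 were tested, 11 lower and 1 higher, with a median of −0.38, against 40.9% higher and 42.1% lower over all genes. SP1, which binds the GC box shown above, fell by 0.73 (SE 0.03, edgeR adjusted p = 1.02e-27), and its relative SP4 fell by 0.65 (SE 0.08, adjusted p = 3.52e-10), or by 0.98 with total counts. These falls were small beside those of CHRNA3 and CHRNB4, and 3 of the 16 passed against a 1.5-fold change, as did 47.8% of all genes.

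Among 8 genes for receptors of cytokines and neurotrophins that favour or maintain cholinergic differentiation, 3 were higher and 5 lower (median −0.35). Over all genes tested, 40.9% were higher and 42.1% lower. LIFR, the receptor of leukaemia inhibitory factor, rose to 346 ± 4.66 CPM in PGC1A, against 62.4 ± 1.27 CPM in GFP (log2 fold change 2.47, SE 0.03, edgeR adjusted p = 2.96e-51). NGFR, the low-affinity neurotrophin receptor, rose by 1.39 (SE 0.07, adjusted p = 2.08e-24).

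**Figure D5:**
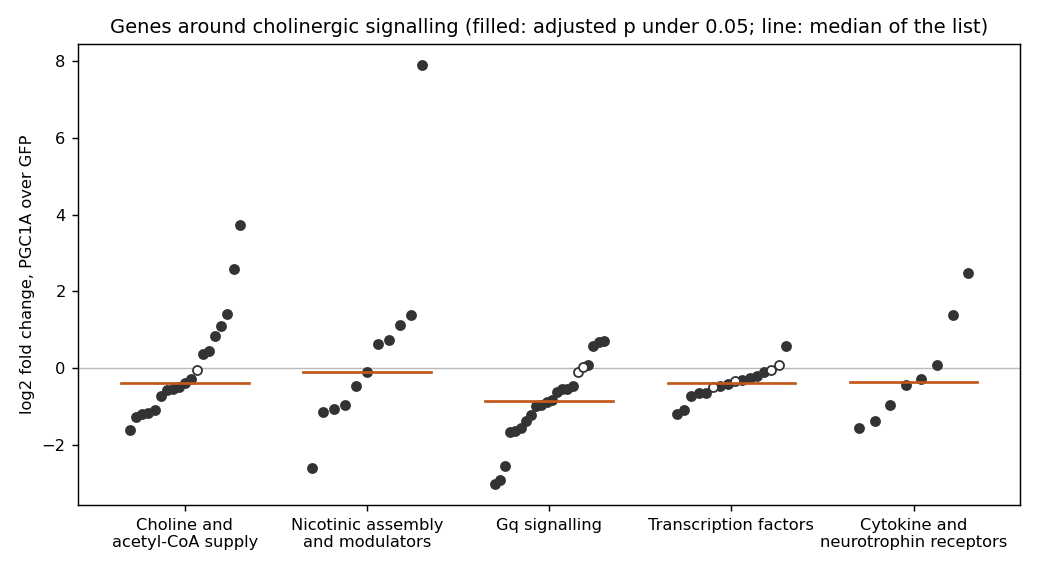
Log2 fold change, PGC1A over GFP, of each tested gene in 5 lists around cholinergic signalling; filled points passed an adjusted p of 0.05 and the line is the median. Gq signalling has the lowest median, at −0.86, and LY6H, CHPT1 and LIFR are the highest points of their lists.

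Markers of cell state also differed between the groups. Of 9 noradrenergic markers tested, out of 10, 8 were lower and 0 higher, where 42.1% of all genes were lower and 40.9% higher. TH, too low to test, went the other way, with 21 counts over the PGC1A libraries and 0 over the GFP libraries. The summed level of the 10 was 393 to 401 CPM in the PGC1A libraries, against 1048 to 1056 CPM in the GFP libraries. DBH, which makes noradrenaline, fell by 3.26 and SLC18A1, the monoamine counterpart of SLC18A3, fell by 4.85 (edgeR adjusted p = 5.40e-45 and 4.89e-42). Of 7 mesenchymal-type markers, 6 were lower and 0 higher against the same background, at a sum of 1513 to 1542 CPM in PGC1A and 3186 to 3243 CPM in GFP. Of 7 glial markers, 4 were tested, 2 higher and 2 lower, at a sum of 2.43 to 3.18 CPM in PGC1A and 8.002 to 8.875 CPM in GFP, and SOX10 was at 0 in every library. Mitochondrial genome transcripts took 13.7% to 14.2% of gene counts in PGC1A and 6.44% to 6.87% in GFP. The part of these shifts in the cholinergic changes was not tested.

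The genes whose pattern over the 6 libraries lay nearest to that of CHRNA3 were RHOB, SLC10A4, TSPAN18, PRRT4 and RTL1. Nearness was the root mean square distance of centred log2 CPM, over 11177 protein-coding genes of at least 5 CPM. It was 0.0770 for RHOB, a small GTPase gene, and 0.0775 for SLC10A4, a solute carrier of synaptic vesicles, and 0.107 to 0.132 for the other three. RHOB was at 11.5 ± 0.0906 CPM in PGC1A and 166 ± 1.30 CPM in GFP, and SLC10A4 was at 1.32 ± 0.135 CPM in PGC1A and 22.0 ± 0.932 CPM in GFP (SD, n = 3 each). With 2 groups of 3 libraries, this measure reflects little beyond a fold change of like size.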

How the data were processed

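Poly(A) RNA of 6 libraries was sequenced after Trizol extraction, with strand retained, per the labels' protocols. The authors deposited raw read counts per gene in 1 table. Per the submitters' processing notes, GRCh38 was used with HTSeq 0.10.0, STAR 2.6.0c, DESeq2 1.20.0 and DRAGEN, in no stated order; the annotation release is not given in the sources used here. The 5 HTSeq summary rows held 28.8% to 31.0% of reads per library, reads with several alignments included, and were left out. Genes with near-identical copies may therefore be undercounted. Symbols, positions and exon lengths come from GENCODE 29.

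Counts were analysed with edgeR 4.0.16 in R 4.3.3: TMM factors, filterByExpr (minimum count 10, total 15), a robust glmQLFit on group alone, and glmQLFTest. The procedure was tested on simulated data. SEs and 95% intervals come from the same fit. Ratios between genes used counts plus 0.5 and exact permutation tests over libraries (scipy 1.17.1), for 4 pairs of genes without adjustment, since no p can go below 0.1. Intervals and the floor of 3 counts cover counting error only. Alternatives were other scaling factors, filters and tests (DESeq2 1.42.0, limma-voom with limma 3.58.1, glmTreat), a replicate block and each library left out; the length of a gene was varied after seeing the data. The members and lists were chosen with earlier results of these data known. Beyond the 10 members, each list named up to 3 genes with the largest absolute change among those past the threshold at a mean of at least 1 CPM; the nearest 3 protein-coding genes beside 3 loci were named for position alone. CHRNA9, COLQ, CHRFAM7A, CHRNA1, CHRM1, SOX10 and TH fall outside this rule and were named after their values were seen. Some genes that this rule names are not reported here.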

Additional observations from a re-analysis of the deposited data

How the results depend on the processing

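Of the 9 genes tested, CHRNA3, CHRNB4, CHRNA5, SLC18A3, SLC5A7 and ACHE kept their direction and passed under all 17 alternatives, CHRNA3 between −4.33 and −3.97 (log2). CHRNA7 and CHRNB2 missed the threshold only against a 1.5-fold change. CHRM3 turned to −0.10 with upper-quartile factors, −0.31 with total counts and −0.0052 without GFP replicate 1; without 1 library it ranged from −0.0052 to 0.053. Of 45 other named genes and neighbours, 9 changed call or sign, most against a 1.5-fold change. The number of members past the threshold without 1 library stayed at 8. Over all genes, 9241 passed against a 1.5-fold change, against 16057 in the test of any change, and 15902 to 16072 passed without 1 library. The differences in log2 ratio ranged without 1 library from −0.86 to −0.80 for CHRNA3 to CHRNB4, from 2.92 to 3.08 for CHRNA5 to CHRNA3, from 2.76 to 2.83 for CHRNB2 to CHRNB4 and from 2.41 to 2.44 for ACHE to CHRNA3. With the union of exons as length, CHRNA3 held 56.9% of nicotinic subunit transcripts in GFP. Against a 1.5-fold change, 10 genes of choline and acetyl-CoA supply passed in place of 18, 3 transcription factors in place of 12, 5 cytokine and neurotrophin receptors in place of 8 and 1 esterase or anchor gene in place of 2.

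Libraries with the same replicate number did not deviate together (correlations of −0.011, 0.006 and 0.011). Within a group, pairs of libraries varied 1.23 to 2.6 times as much as counting error gives (chi-square per degree of freedom). Between groups the values were 279 to 323. With so little variation within groups, these correlations cannot show whether libraries were paired. With the replicate block 16071 genes and 8 members passed, and the differences in log2 ratio were the same, with an exact sign-flip p of 0.25, the smallest 3 pairs allow. Depth limits CHAT most, and next the genes near silence in GFP. What caused the shifts between settings was not tested.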

Other observations

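The genes beside the other loci of the set also differed in both directions. Beside CHAT and SLC18A3 on chromosome 10, OGDHL, a relative of the oxoglutarate dehydrogenase enzyme, rose to 222 ± 9.58 CPM in PGC1A, against 38.8 ± 1.18 CPM in GFP (SD, n = 3 each; log2 fold change 2.51, SE 0.03, edgeR adjusted p = 1.46e-47). ERCC6, a DNA repair gene, and PARG, which degrades poly(ADP-ribose), rose by 0.56 and 0.30 (adjusted p = 2.07e-13 and 5.06e-12), but ERCC6 by only 0.23 with total counts, where PARG turned to −0.03 (adjusted p = 0.385). PARG rose by 0.17 with upper-quartile factors. DRGX, which encodes a homeodomain protein of sensory neurons, fell to 0.957 ± 0.199 CPM in PGC1A, against 25.9 ± 0.865 CPM in GFP (log2 fold change −4.76, SE 0.10, adjusted p = 4.48e-39). C10orf53, the nearest gene after CHAT, and C10orf71 were too low to test.

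Beside CHRNA7 on chromosome 15, OTUD7A, a deubiquitinase gene, fell by 0.36 (SE 0.12, edgeR adjusted p = 0.00425), a call lost with DESeq2 (adjusted p = 0.0583) and without GFP replicate 3 (−0.26, adjusted p = 0.0650). OTUD7A was at −0.69 with total counts. KLF13, a zinc finger factor gene, fell by 1.36 (SE 0.03, adjusted p = 1.05e-36), while CHRNA7 itself rose by 0.55. On the other side, GOLGA8N rose by 2.26 and GOLGA8K by 2.43 (adjusted p = 1.58e-16 and 2.10e-05). Reads of GOLGA8 genes may align to near-identical copies, which leaves these counts uncertain. TRPM1 and GOLGA8O were too low to test.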
